A study of Mus musculus with 62 samples.

Results

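At 3 weeks post induction (w.p.i.), 1302 autosomal sites had less H3.3 in Daxx-KO than in WT haematopoietic stem and progenitor cells (HSPCs) and lay on a site with more H3K9me3. They were chosen by 2 tables of CUT&Tag sites that changed between genotypes: both Daxx-KO libraries had to be below both WT libraries for H3.3, and the site had to share at least 1 bp with an H3K9me3 site at which both Daxx-KO libraries were above both WT libraries. The 1302 came from 141512 listed autosomal H3.3 sites, of which 57563 were lost by this rule, and they covered 1306 of the 45021 gained H3K9me3 sites.

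H3.3 is the histone H3 variant that is placed into chromatin outside DNA replication. Daxx is a chaperone that binds H3.3 and, with the remodeller Atrx, delivers it to heterochromatin, telomeres and retroelements, while Hira serves active genes. H3K9me3, trimethylation of lysine 9 of H3, marks silent chromatin, and Pu.1 is a transcription factor of the myeloid and B lineages.

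HSPCs were bone marrow cells that lacked lineage markers and carried c-Kit, isolated with magnetic beads from mice. WT mice were Daxx +/+ Cre +/- and Daxx-KO mice Daxx F/F Cre +/-, so both genotypes carried the interferon-inducible Mx1Cre transgene and both were given pI:pC, which induces it. Mx1Cre is known to act outside blood cells as well, and recombination in other tissues was not analysed here. The ages of single mice were not used here. H3.3 and H3K9me3 were measured at 3 and 24 w.p.i. in 2 libraries per genotype, H3K9me3 also at 8 w.p.i. in 3 libraries per genotype, Pu.1 and H3K27ac at 3 and 24 w.p.i., and H3K27me3 at 24 w.p.i. The mice of 8 and 24 w.p.i. were others than those of 3 w.p.i. At 3 w.p.i. the H3.3 and Pu.1 libraries came from one pair of Daxx-KO mice and the H3K9me3 and H3K27ac libraries from another, whereas WT replicate 2 was the same mouse in all of them.

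Values are normalized counts, the reads at a site divided by a constant that the authors set for each library. A site is called lost where all Daxx-KO values were below all WT values, and gained where they were all above. No test is attached to these calls: 2 libraries against 2 allow an exact two-sided permutation p no lower than 0.333, and 3 against 3 no lower than 0.10. The tables list only sites that changed, so a site with no entry has no value. The mean number of reads per 600-bp window was 9.43 and 11.27 in the Daxx-KO H3.3 libraries of 3 w.p.i. and 22.88 and 3.06 in the WT ones, so that 1 read in WT replicate 2 stood for 2.62 normalized counts and in the other libraries for 0.70 to 0.79. In the H3K9me3 libraries of 3 w.p.i. this mean lay between 1.21 and 3.00 reads. Of 8 HSPC marker genes, 7 had a listed H3K27ac site within 1 kb of a transcription start site (TSS) at 3 w.p.i., and of 15 marker genes of B, T, erythroid, neutrophil and macrophage cells 7 had one. Their part in the results was not tested. An H3K27ac site in the floxed gene, at chr17:33909601-33911450 in Daxx, measured 24.2 and 13.6 in the Daxx-KO mice that also gave the H3K9me3 libraries of 3 w.p.i., against 65.5 and 105 in WT. A second one, chr17:33915201-33915850, went the other way, with 33.91 and 56.07 against 2.15 and 15.45. The H3.3 and Pu.1 sites listed in Daxx at 3 w.p.i. were also higher in Daxx-KO. The sites of 3 w.p.i. therefore give no check of the deletion. At 24 w.p.i. a Pu.1 site inside Daxx, chr17:33912801-33913750, measured 0 and 0 against 63.33 and 44.21. An H3K27ac site there, chr17:33909801-33913400, measured 113.15 and 93.68 against 857.89 and 367.84. H3K27ac sites of 24 w.p.i. at both ends of the gene were higher in Daxx-KO. The place of these sites relative to the floxed exons was not tested.

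The sequences below are the central 200 bases of 5 sites, on the plus strand of GRCm38 (mm10), with each CpG dinucleotide in capitals, because the sites were poorer in GC and CpG than other H3.3 sites. The first lay in Map3k4 on chromosome 17 and kept both changes at 24 w.p.i., and the second, in Smoc2, lay in the chromosome 17 block described below. The third lay in Nuggc and was among the sites with the widest H3K9me3 difference, the fourth beside Hoxd12 was a promoter site rich in CpG, and the fifth lay in an intron of Ebf1.
Map3k4, chr17:12269251-12269450: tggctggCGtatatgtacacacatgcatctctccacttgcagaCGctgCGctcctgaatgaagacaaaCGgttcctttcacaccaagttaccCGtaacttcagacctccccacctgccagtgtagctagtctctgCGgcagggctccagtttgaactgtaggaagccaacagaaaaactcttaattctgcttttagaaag
Smoc2, chr17:14341226-14341425: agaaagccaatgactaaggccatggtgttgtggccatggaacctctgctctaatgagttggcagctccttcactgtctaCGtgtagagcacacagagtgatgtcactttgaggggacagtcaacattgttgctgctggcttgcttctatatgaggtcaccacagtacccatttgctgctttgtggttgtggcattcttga
Nuggc, chr14:65626476-65626675: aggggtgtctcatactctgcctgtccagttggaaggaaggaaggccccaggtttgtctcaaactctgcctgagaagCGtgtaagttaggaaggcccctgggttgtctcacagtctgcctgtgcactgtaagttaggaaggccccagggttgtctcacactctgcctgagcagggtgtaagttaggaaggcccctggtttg
Hoxd12, chr2:74674051-74674250: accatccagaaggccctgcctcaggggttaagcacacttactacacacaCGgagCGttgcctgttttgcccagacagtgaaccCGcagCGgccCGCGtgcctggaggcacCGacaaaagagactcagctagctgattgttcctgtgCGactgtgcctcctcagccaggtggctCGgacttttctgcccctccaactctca
Ebf1, chr11:44724226-44724425: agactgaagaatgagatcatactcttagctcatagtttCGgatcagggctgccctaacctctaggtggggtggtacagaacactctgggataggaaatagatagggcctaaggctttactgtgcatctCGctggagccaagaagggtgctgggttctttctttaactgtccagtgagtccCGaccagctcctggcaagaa
These windows held 6, 1, 1, 9 and 3 CpG. Their GC content was 49.0%, 48.5%, 55.0%, 59.0% and 50.0%, all above the upper quartile of 47.8% for the 1302 sites. They are therefore no picture of GC content in the sites as a whole.

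The values that chose the sites were as follows. The median H3.3 level was 11.1 in Daxx-KO replicate 1, 16.9 in Daxx-KO replicate 2, 55.4 in WT replicate 1 and 55.0 in WT replicate 2. H3.3 was at 0 in Daxx-KO replicate 1 at 177 sites and in both Daxx-KO libraries at 10 sites. At the 1306 H3K9me3 sites, medians were 16.3 and 16.7 in Daxx-KO compared with 3.50 and 3.48 in WT, and WT replicate 1 was at 0 at 286 of them. Over all listed autosomal sites, 40.7% were lost for H3.3 and 78.6% gained for H3K9me3. A gained H3K9me3 site was met by 2.26% of the H3.3-loss sites and by 1.07% of the H3.3-gain sites, the latter numbering 876. Conversely, 2.90% of the gained H3K9me3 sites met a lost H3.3 site.

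**Figure D1:**
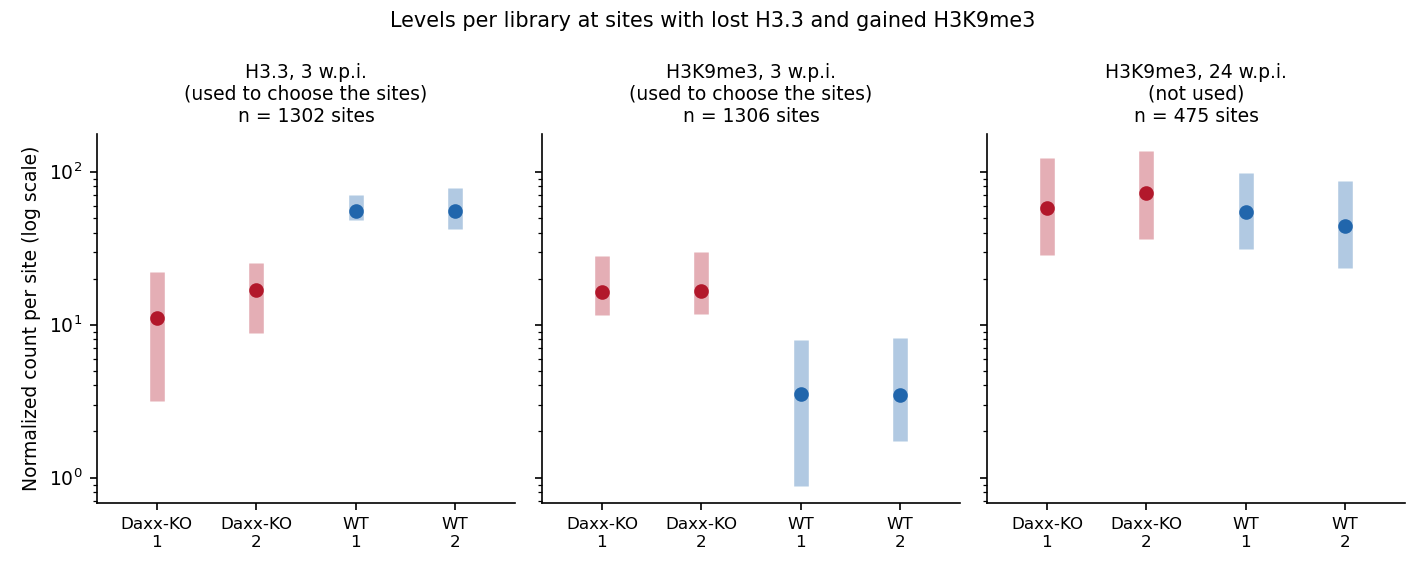
Normalized counts per library (log axis) at the sites with lost H3.3 and gained H3K9me3, with the median as a point and the lower to upper quartile as a bar, Daxx-KO in red and WT in blue. The 2 left panels show the values that chose the sites (H3.3 medians of 11.1 and 16.9 against 55.4 and 55.0), and the right panel the 475 H3K9me3 sites of 24 w.p.i. at these sites, with medians of 58.0 and 73.0 in Daxx-KO compared with 54.4 and 44.0 in WT.

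The rule set its limit at any gap between genotypes. Just inside lay chr7:38504951-38505600, with H3.3 at 30.01 and 38.32 in Daxx-KO compared with 39.26 and 112.63 in WT, and chr5:28644451-28645350, with 45.80 and 54.53 against 56.09 and 165.01. Just outside lay chr17:93951151-93951750, where Daxx-KO replicate 2 at 33.16 exceeded WT replicate 1 at 32.95, and chr12:54598451-54599250, where 49.37 exceeded 49.08.

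Most of the sites lay away from promoters. In the GENCODE M21 annotation, 694 of 1302 (53.3%) were intergenic, 533 (40.9%) lay in a gene body and 75 (5.76%) within 1 kb of a TSS, against 16.1% at promoters over all listed H3.3 sites and 10.3% over the other H3.3-loss sites. Of those in gene bodies, 466 lay in introns only and 67 touched an exon. Coding sequence was touched by 46 sites and a UTR by 25. The median distance to the nearest TSS of any transcript was 20900 bp, compared with 12600 bp for the other H3.3-loss sites and 8840 bp for all listed H3.3 sites. H3K9me3-gain sites at no lost H3.3 lay farther out still, at 28400 bp, and 4.18% of them were at promoters.

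In GC and repeat content the sites lay between the other H3.3-loss sites and the H3K9me3-gain sites at no lost H3.3, and in CpG they were near the latter. Median GC content was 45.2%, against 46.8% for the other H3.3-loss sites, 49.0% for all listed H3.3 sites and 39.7% for the H3K9me3-gain sites at no lost H3.3. Soft-masked repeats covered a median of 20.5% of a site, against 13.5%, 16.3% and 35.4% in the same order. The observed over expected CpG ratio had a median of 0.131, against 0.161 for the other H3.3-loss sites and 0.133 for the H3K9me3-gain sites at no lost H3.3. At least 50% of the sequence was soft-masked in 255 sites (19.6%), and 5 sites were wholly soft-masked. The telomeric unit TTAGGG, searched on both strands in the central 600 bp, was present in 24.0% of the sites, in 24.1% of the other H3.3-loss sites and in 21.9% of all listed H3.3 sites. The Pu.1 core GAGGAA was present in 48.3%, 47.1% and 44.5%.

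All 19 autosomes held such sites. Chromosome 17 had the highest density, 95 sites or 1.00 per Mb and 4.68% of its H3.3-loss sites, and chromosome 19 the lowest, 2 sites or 0.256% of its H3.3-loss sites. None lay within 5 Mb of Daxx itself (chr17:33909414-33915590), where 132 H3.3-loss sites were listed. The 1302 sites fell in 802 windows of 1 Mb, and 22 windows held 5 or more. The 3 leading windows were chr17:14000001-15000000 with 24 sites, chr17:13000001-14000000 with 21 and chr4:147000001-148000000 with 15.

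The nearest protein-coding genes numbered 953, and 757 of them had a single site. The median distance from the middle of a site to the TSS of that gene was 102998 bp, with 130 sites within 10 kb and 658 beyond 100 kb. The genes with most sites were Smoc2, which encodes a secreted calcium-binding matrix protein, with 10, Prl2c3, a prolactin-family hormone gene, with 9, Ptprt, a receptor phosphatase gene, with 8, and Tcp10c, a gene of the t-complex, with 8. Each of these also drew other H3.3-loss sites, 20, 23, 42 and 24 in all.

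Few sites were near genes of haematopoiesis. Of 43 autosomal genes for haematopoietic transcription factors 3 were nearest to a site, namely Jun, Myc and Mycn, and 390 of all H3.3-loss sites (0.678%) had a gene of this list as nearest, against 3 sites (0.230%) here. The site nearest to Myc, chr15:62136051-62136750, was 151009 bp away. There H3.3 measured 1.58 and 6.63 in Daxx-KO compared with 55.39 and 36.67 in WT, and Pu.1 was lower as well, at 11.03 and 29.18 against 73.12 and 51.14. At 24 w.p.i. Pu.1 was higher there, at 46.35 and 36.57 in Daxx-KO against 2.88 and 0 in WT. The Mycn site, chr12:12761601-12762500, was 179864 bp from its TSS. H3.3 there was at 20.53 and 25.79 against 77.83 and 70.72, and it was still lower at 24 w.p.i., at 11.04 and 11.32 against 55.35 and 33.84. The Jun site, chr4:95089001-95089650, was 37103 bp from its TSS, with H3.3 at 11.84 and 13.26 against 44.17 and 49.77.

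Of 20 genes of the B lineage, Ebf1, the early B-cell transcription factor, had a site in an intron, chr11:44723751-44724900, and no other gene of the list was nearest to a site (0.0768% of the sites, against 0.162% of all H3.3-loss sites). H3.3 there was 17.37 and 11.79 in Daxx-KO compared with 96.76 and 130.96 in WT, and H3K9me3 was 11.63 and 13.33 against 1.75 and 2.32. No changed site of H3K9me3 at 8 w.p.i. or of H3.3, H3K9me3 or H3K27me3 at 24 w.p.i. overlapped it. Of 19 neutrophil genes and 32 genes of interferon and nucleic-acid sensing none was nearest to a site, and of all H3.3-loss sites 0.0747% and 0.0851% had them as nearest gene.

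Of 34 genes for H3.3 chaperones and H3K9 methylation 3 were nearest to a site, or 0.230% of the sites against 0.0990% of all H3.3-loss sites. Dnmt3a, a de novo DNA methyltransferase, had one in an intron at chr12:3877651-3878250, with H3.3 at 0 and 25.06 in Daxx-KO compared with 46.98 and 47.15 in WT and H3K9me3 at 9.30 and 10.00 against 0 in both WT libraries. The site nearest to Smarcad1, a chromatin remodeller, was 44133 bp away and had H3.3 at 3.16 and 11.05 against 47.68 and 47.15. At 24 w.p.i. H3.3 remained lower there, at 0 and 13.58 against 46.12 and 43.25. Kdm4c, a demethylase of H3K9, was 440928 bp from its site.

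Gene families were also counted by name, whatever the distance. Zinc finger genes named Zfp were the nearest gene of 37 sites (2.84%, against 1.57% of all H3.3-loss sites), from 21 genes including those with a site inside. Olfactory receptor genes (Olfr) were nearest to 16 (1.23%, against 0.697%), vomeronasal receptor genes to 6 (0.461%, against 0.342%), Pcdh genes to 6 (0.461%, against 0.238%) and Hox genes to 3 (0.230%, against 0.0261%). The Pcdh genes were Pcdh7, Pcdh9, Pcdh15, Pcdh17, Pcdh18 and Pcdh20, none of them from the protocadherin clusters. Some members of the Zfp, Olfr and vomeronasal families are close copies of each other, and reads may be shared between such copies. The promoter site 863 bp from the TSS of Hoxd12, chr2:74673701-74674600, had H3.3 at 22.11 and 23.58 in Daxx-KO compared with 63.10 and 99.53 in WT, and H3K9me3 at 13.95 and 20.00 against 0 and 0.58. A site in Hoxd3 that touched annotated coding sequence, chr2:74745851-74747100, had H3.3 at 31.59 and 56.74 against 114.29 and 104.77. H3K9me3 was gained there again at 24 w.p.i., at 38.89 and 126.11 against 23.32 and 36.54. The third, in Hoxc4, had H3.3 at 31.59 and 29.48 against 62.40 and 55.00.

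H3K9me3 at later times was not used to choose the sites. At 8 w.p.i. 202 sites (15.5%) overlapped a gained and 31 (2.38%) a lost H3K9me3 site, against 2.45% and 1.07% of all listed H3.3 sites and 2.93% and 0.850% of the other H3.3-loss sites. In the whole table of 8 w.p.i. 57.6% of sites were gained. A listed H3K9me3 site of any direction was met by 20.4% of the sites, against 3.89% of all listed H3.3 sites. Of those that met a changed one, 87.1% met a gained one, against 70.0%. Since every site here lay on a gained H3K9me3 site, the gained H3K9me3 sites themselves are the nearer comparison: 15.8% of those at the 1302 sites were gained again at 8 w.p.i., against 10.4% of those at no lost H3.3 and 19.7% of those at gained H3.3. At the 207 gained sites of 8 w.p.i. that overlapped, medians were 26.2, 30.4 and 34.8 in Daxx-KO compared with 6.32, 5.06 and 8.74 in WT.

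At 24 w.p.i. 271 sites (20.8%) overlapped a gained and 177 (13.6%) a lost H3K9me3 site, against 11.6% and 7.31% of all listed H3.3 sites. In the whole table of 24 w.p.i. 46.9% of sites were gained. A listed H3K9me3 site of any direction was met by 34.1% of the sites, against 19.1% of all listed H3.3 sites. Of those that met a changed one, 62.9% met a gained one, against 63.2%. The sites thus met more listed H3K9me3 sites, while the balance of gained and lost was that of all listed H3.3 sites. Of the gained H3K9me3 sites of 3 w.p.i. at the 1302 sites, 21.2% were gained and 12.9% lost at 24 w.p.i. For those at no lost H3.3 the shares were 8.21% and 10.2%, and for those at gained H3.3 31.1% and 10.2%. H3K9me3 was gained at both 8 and 24 w.p.i. at 71 sites (5.45%, against 0.719% of all listed H3.3 sites), of which 23 lay in 2 windows of chromosome 17 described below and 40 lay outside chr17 11 to 15 Mb and chr4 146 to 148 Mb.

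**Figure D2:**
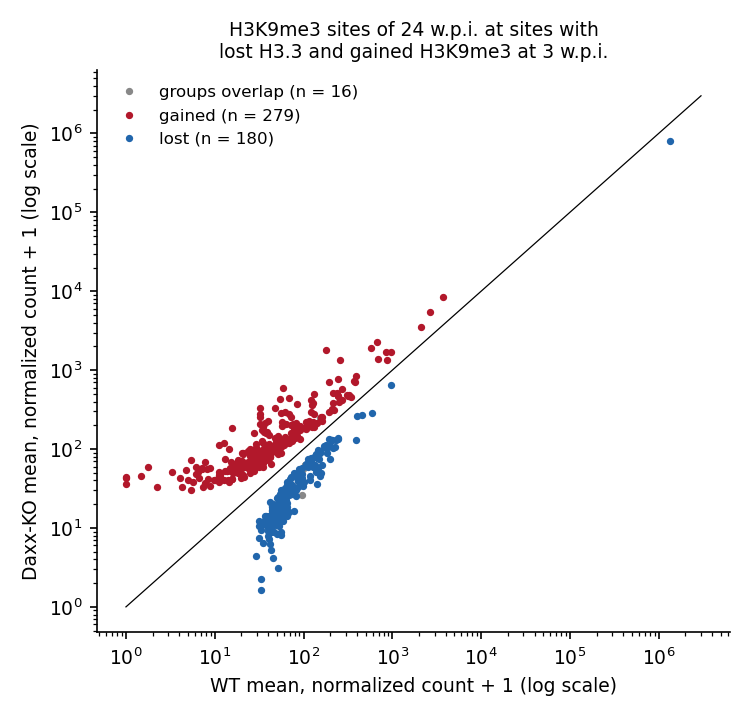
Mean H3K9me3 of 2 Daxx-KO libraries against the mean of 2 WT libraries at 24 w.p.i. (normalized count + 1, both axes log) for each listed site of that table that overlaps a site with lost H3.3 and gained H3K9me3 at 3 w.p.i., with equality as a line. Of 475 sites, 279 were gained (red), 180 lost (blue) and 16 had overlapping groups (grey).

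The share gained again at 24 w.p.i. went with GC content. Below 42% GC, 10.8% of 260 sites overlapped a gained and 18.5% a lost H3K9me3 site of 24 w.p.i., whereas at 48% GC and above 31.6% of 316 sites overlapped a gained and 13.6% a lost one. The other H3.3-loss sites rose from 3.63% to 12.9% gained between the same GC classes. At 8 w.p.i. the share gained lay between 14.6% and 16.2% in all 4 GC classes. Below 45% GC, 91 of 609 sites overlapped a gained and as many a lost H3K9me3 site of 24 w.p.i. The part of GC content in the result of 24 w.p.i. was not tested.

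**Figure D3:**
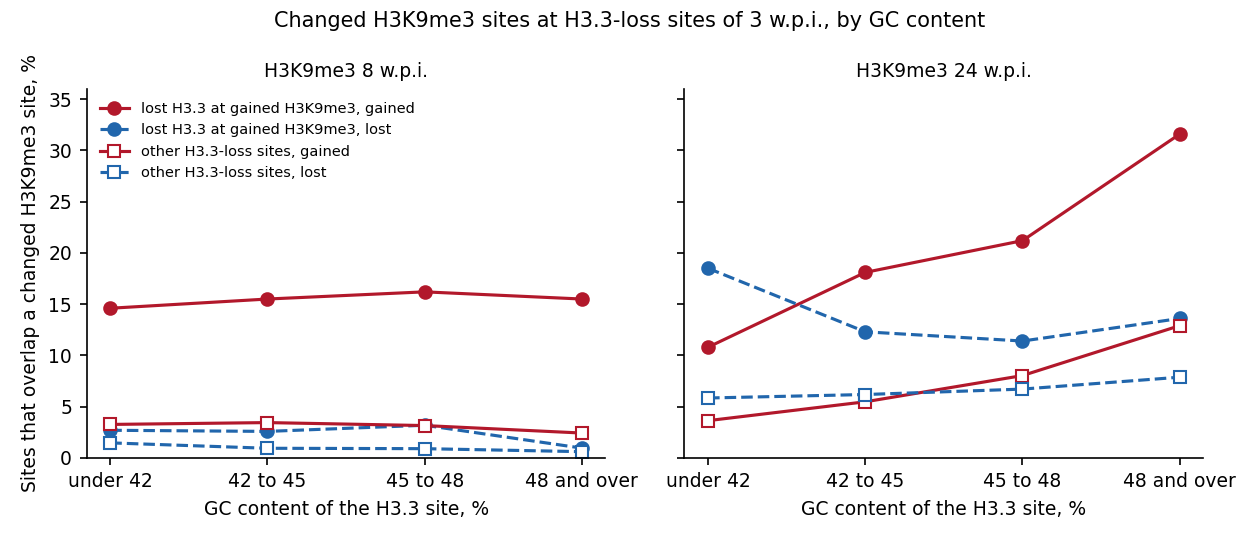
Share of H3.3-loss sites (%) that overlapped a gained (red, solid) or lost (blue, dashed) H3K9me3 site at 8 w.p.i. (left) and 24 w.p.i. (right), in 4 classes of GC content of the H3.3 site, for the sites on gained H3K9me3 (filled) and the other H3.3-loss sites (open). The filled red points stay between 14.6% and 16.2% at 8 w.p.i. and run from 10.8% to 31.6% at 24 w.p.i.

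H3.3 at 24 w.p.i. was lost at about as many of the sites as it was gained. Lost H3.3 sites of 24 w.p.i. overlapped 179 of the 1302 sites (13.7%, against 15.4% of all listed H3.3 sites) and gained ones 187 (14.4%, against 15.7%), and 51.3% of the whole table of 24 w.p.i. was gained. The other H3.3-loss sites gave 14.9% and 14.4%. Both a lost and a gained H3.3 site of 24 w.p.i. overlapped 22 sites. At the 179 lost sites of 24 w.p.i., medians were 4.42 and 6.79 in Daxx-KO compared with 63.6 and 61.1 in WT, and at the 187 gained ones 66.2 and 70.2 against 13.8 and 11.3.

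The pair of changes was kept at 52 sites (3.99%), which had both lost H3.3 and gained H3K9me3 at 24 w.p.i., against 2.27% of all listed H3.3 sites. At 27 sites (2.07%, against 1.20%) both had turned round, with H3.3 gained and H3K9me3 lost. Both were gained at 45 sites (3.46%, against 2.25%) and both were lost at 28 (2.15%, against 1.23%). Every combination was thus above its share of all listed H3.3 sites, not the kept pair alone. At 642 sites (49.3%, against 57.5%) neither table of 24 w.p.i. had an entry. Of the 52 sites, 14 lay in the 2 leading windows of chromosome 17 and 33 outside chr17 11 to 15 Mb and chr4 146 to 148 Mb. Of the 27 sites, none lay in that part of chromosome 17 and 6 lay in that part of chromosome 4.

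**Figure D4:**
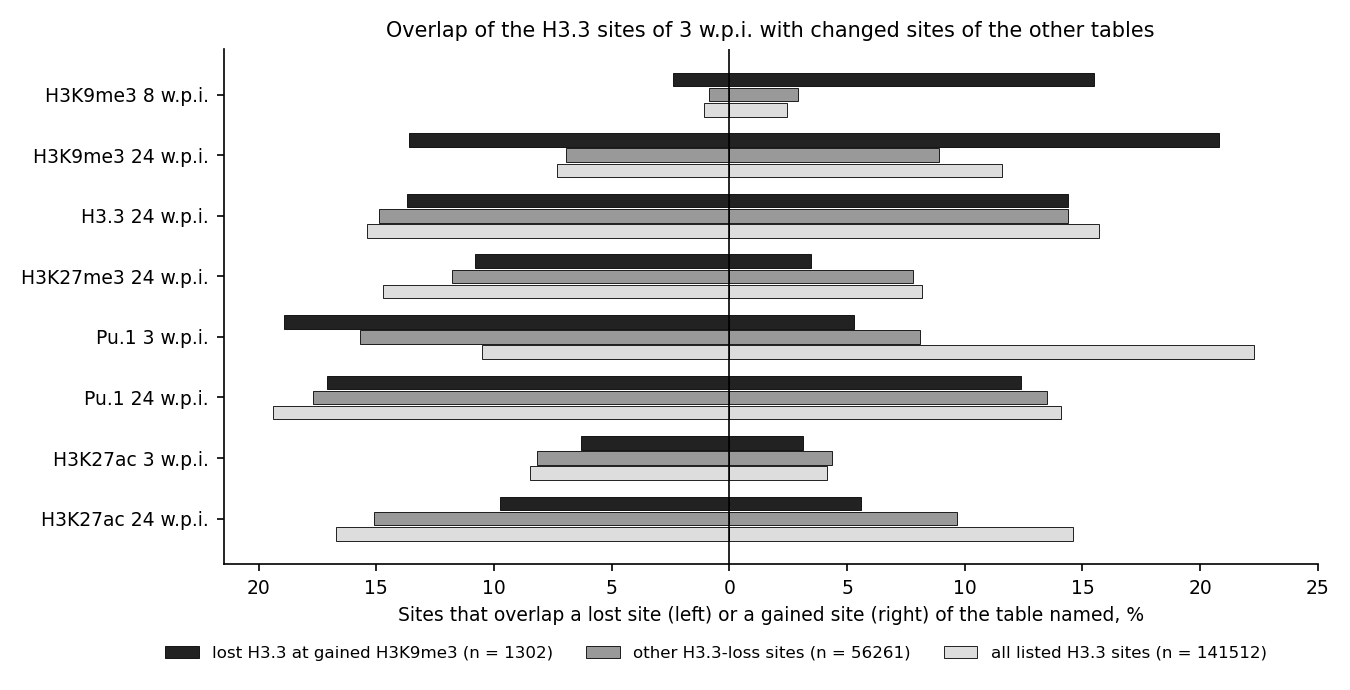
Share of H3.3 sites of 3 w.p.i. (%) that overlapped a lost (left) or gained (right) site of each other table, for the 1302 sites with lost H3.3 at gained H3K9me3 (black), the other H3.3-loss sites (grey) and all listed H3.3 sites (light). The black bar for gained H3K9me3 reaches 15.5% at 8 w.p.i. and 20.8% at 24 w.p.i., and the black bars for H3.3 at 24 w.p.i. are 13.7% and 14.4%.

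Among the sites that kept both changes was an intron of Map3k4 on chromosome 17. Map3k4 encodes a kinase at the head of stress-activated MAP kinase cascades. At chr17:12269051-12269650, H3.3 measured 28.43 and 22.84 in Daxx-KO compared with 55.39 and 41.91 in WT at 3 w.p.i., and 0 and 4.53 against 56.27 and 148.54 at 24 w.p.i. The H3K9me3 site over it measured 98.84 and 169.99 in Daxx-KO compared with 17.50 and 16.81 in WT at 3 w.p.i. At 8 w.p.i. H3K9me3 measured 574.08, 470.83 and 395.71 in Daxx-KO compared with 12.64, 15.18 and 44.96 in WT, and at 24 w.p.i. 2235.93 and 1348.67 against 155.45 and 200.52. The groups did not overlap at any of the 3 times. A second site in the gene, chr17:12266151-12267300, lay within 1 kb of a TSS, was covered by the same H3K9me3 site and had H3.3 at 18.95 and 45.69 against 96.06 and 112.63.

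Both changes were also kept at sites on other chromosomes. In an intron of Nuggc, a GTPase gene of germinal-centre B cells, chr14:65626001-65627150 had H3.3 at 35.53 and 52.32 in Daxx-KO compared with 132.52 and 89.06 in WT, and H3K9me3 at 944.19 and 879.95 against 378.00 and 449.92. At 24 w.p.i. H3.3 measured 6.62 and 6.79 against 52.58 and 96.83 and H3K9me3 809.07 and 657.66 against 363.75 and 379.50. At 8 w.p.i. the groups of H3K9me3 overlapped there, with 96.25 in Daxx-KO replicate 3 and 129.88 in WT replicate 3. The sequence of this site printed above repeats a short unit in tandem, although soft-masking covered only 2.0% of the site. The part of reads from repeated units in its levels was not tested. At chr6:149363451-149364050, 45136 bp from the TSS of Bicd1, a dynein adaptor gene, H3K9me3 rose from 509.87 and 839.58 in WT to 2584.68 and 2027.18 in Daxx-KO at 24 w.p.i., while H3.3 measured 0 and 1.13 in Daxx-KO compared with 51.66 and 50.77 in WT. At 8 w.p.i. the groups of H3K9me3 overlapped at this site too, with 44.12 in Daxx-KO replicate 3 and 51.35 in WT replicate 1. At chr5:37317851-37320150, a promoter site over coding sequence of Evc, a gene of the primary cilium, H3.3 measured 104.23 and 51.58 against 210.35 and 240.97 at 3 w.p.i. and 11.04 and 9.05 against 80.26 and 49.83 at 24 w.p.i.

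Other sites turned round. In the Ugt1a cluster, which encodes enzymes of glucuronidation, the promoter site chr1:88219201-88221950 had the widest H3.3 gap of all promoter sites, 228.21 and 171.70 in Daxx-KO against 786.69 and 343.13 in WT, with H3K9me3 at 39.53 and 51.66 against 14.00 and 22.03. At 24 w.p.i. H3.3 measured 107.09 and 114.31 in Daxx-KO compared with 23.06 and 76.15 in WT, and H3K9me3 116.04 and 86.51 against 189.65 and 170.54. The intergenic site chr7:36309601-36310450 lay 388093 bp from the TSS of its nearest gene, Tshz3, a zinc finger gene. H3.3 there was at 4.74 and 29.48 against 68.71 and 52.39 at 3 w.p.i. and at 76.18 and 79.23 against 6.46 and 22.56 at 24 w.p.i. H3K9me3 there was gained at 8 w.p.i., with 20.79, 9.20 and 21.39 against 4.74, 5.06 and 0, and lost at 24 w.p.i., with 146.00 and 129.24 against 248.72 and 243.63.

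Some sites stood out by level. At chr2:98664451-98665750 the H3.3 count was 10165.92 and 6770.78 in Daxx-KO compared with 25837.43 and 19228.10 in WT, far above the upper quartile of 70.1 in WT replicate 1. Soft-masked repeats covered 26.9% of that site, but its central bases repeat a unit in tandem. The soft-masked share therefore does not show that the rest is unique sequence. H3K9me3 there measured 728681.96 and 870368.5 in Daxx-KO compared with 1399608.31 and 1278096.87 in WT at 24 w.p.i. The part of reads from repeated copies elsewhere in these levels was not tested. Of the sites in gene bodies, the widest H3K9me3 gap was in an intron of Lyst, the lysosomal trafficking regulator, which measured 1906.98 and 2116.55 in Daxx-KO compared with 1449.01 and 1131.17 in WT. It was gained again at 8 w.p.i., with 814.56, 704.41 and 684.47 against 350.79, 361.02 and 478.31, and at 24 w.p.i., with 9639.94 and 7423.96 against 3060.78 and 4351.56. The widest H3K9me3 gap of all was at 1 H3K9me3 site on chromosome 8, shared by 3 sites nearest to Zfp709, at 1725.58 and 1854.89 in Daxx-KO compared with 882.88 and 860.99 in WT.

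On chromosome 17 the 2 leading windows formed a block in which H3K9me3 was gained at each time. In chr17:14000001-15000000, 157 of 158 listed H3K9me3 sites were gained at 3 w.p.i., 151 of 155 at 8 w.p.i. and 216 of 223 at 24 w.p.i. In chr17:13000001-14000000 the counts were 164 of 174, 186 of 209 and 216 of 224. Beyond 15 Mb few sites were listed in the next window, of which 6 of 9, 3 of 4 and 21 of 38 were gained, and from 16 to 17 Mb 59 of 64, 35 of 51 and 34 of 59 were gained. None of the 1302 sites lay in these 2 windows. Towards the centromere the next window, chr17:12000001-13000000, was mixed, with 17 of 27, 31 of 41 and 88 of 111 listed H3K9me3 sites gained and 5 of the 1302 sites, while chr17:11000001-12000000 had 57 of 58, 53 of 58 and 84 of 102 and held 8.

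The 24 sites of the window from 14 to 15 Mb ran from 14029151 to 14715200, past Dact2, which encodes a Dishevelled-binding protein, Smoc2 and Thbs2, a thrombospondin gene. Their median H3.3 was 14.6 and 21.0 in Daxx-KO compared with 55.4 and 49.8 in WT. At the overlapping H3K9me3 sites medians were 25.6 and 30.0 against 1.75 and 3.48 at 3 w.p.i. For 8 w.p.i. they were 33.5, 36.8 and 29.4 against 0, 0 and 6.24 over 15 sites, and for 24 w.p.i. 313 and 214 against 71.5 and 32.3 over 22 sites, all gained. Of the 24 sites, 21 were gained again at 24 w.p.i. and 15 at 8 w.p.i., none was lost at either time, and H3.3 was lost again at 7 and gained at 1. Of the 21 sites from 13 to 14 Mb, H3K9me3 was gained again at 16 at 24 w.p.i. and at 14 at 8 w.p.i. and lost at none, and H3.3 was lost at 8 and gained at 9 at 24 w.p.i.

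H3K27me3, the mark of Polycomb repression, was measured at 24 w.p.i. and was lower over the same block. It was lost at 214 of 218 listed sites from 14 to 15 Mb and at 187 of 189 from 13 to 14 Mb, against 56.8% of the whole table. Next to the block it was lost at 80 of 116 listed sites in chr17:12000001-13000000 and at 66 of 84 in chr17:15000001-16000000. Farther towards the centromere it was lost at 57 of 57 in chr17:11000001-12000000 and at 56 of 64 in chr17:10000001-11000000. The loss of H3K27me3 was thus not confined to the block. At the 19 H3K27me3 sites that overlapped the 24 sites, all lost, medians were 19.1 and 45.1 in Daxx-KO compared with 99.0 and 90.0 in WT. H3.3 sites of 3 w.p.i. in the block did not share 1 direction, with 72 lost and 40 gained from 14 to 15 Mb and 59 lost and 107 gained from 13 to 14 Mb. Lost H3K27ac sites of 24 w.p.i. numbered 133 of 155 (85.8%) from 13 to 14 Mb and 45 of 65 (69.2%) from 14 to 15 Mb. Next to the block they numbered 125 of 172 (72.7%) in chr17:12000001-13000000 and 65 of 111 (58.6%) in chr17:15000001-16000000. The share from 14 to 15 Mb thus lay between those of the windows next to the block. The share lost in the whole H3K27ac table is not given here.

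An intron and non-coding exon region of Smoc2, chr17:14340801-14341850, shows the block at 1 site. H3.3 measured 22.90 and 25.79 in Daxx-KO compared with 92.55 and 96.91 in WT at 3 w.p.i. and 3.31 and 43.01 against 82.10 and 104.35 at 24 w.p.i. H3K9me3 measured 11.63 and 31.66 against 4.38 and 2.90 at 3 w.p.i., 12.66, 36.78 and 12.03 against 0 in all 3 WT libraries at 8 w.p.i., and 1783.26 and 932.81 against 329.55 and 188.34 at 24 w.p.i. H3K27me3 at 24 w.p.i. was 25.53 and 60.72 against 194.19 and 109.94. The block lies on the chromosome of Daxx, and a difference carried with the floxed allele cannot be told apart from the loss of Daxx.

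**Figure D5:**
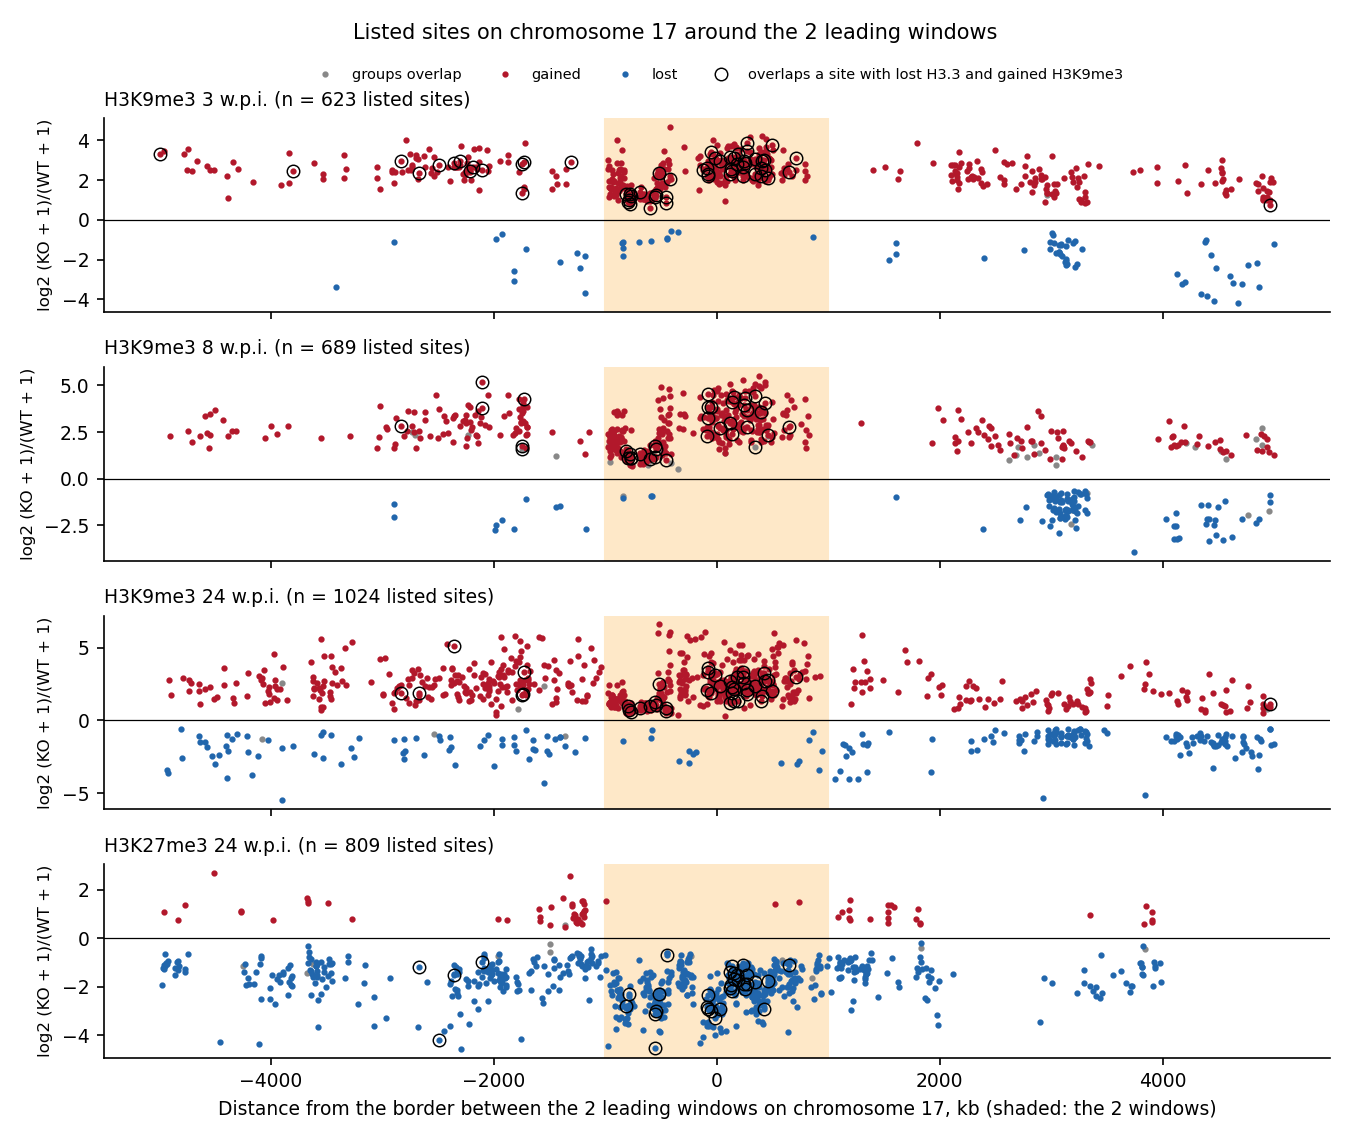
Each listed site of 4 tables on chromosome 17, by distance from the border of the 2 leading windows (kb) and by log2 of the Daxx-KO mean over the WT mean (1 added to each), with gained sites in red, lost in blue, overlapping groups in grey and circles where a site with lost H3.3 and gained H3K9me3 is overlapped. In the shaded 2 windows H3K9me3 points lie almost all above 0 at 3, 8 and 24 w.p.i., and H3K27me3 points of 24 w.p.i. almost all below 0.

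The third leading window, chr4:147000001-148000000, is a cluster of near-identical Zfp genes, among them Zfp991, Zfp988, Zfp978 and Zfp982. Its 15 sites had median H3.3 of 23.7 and 38.3 in Daxx-KO compared with 99.6 and 105 in WT. H3K9me3 in the whole window did not keep a direction, since 102 of 152 listed sites were gained at 3 w.p.i., 52 of 162 at 8 w.p.i. and 57 of 253 at 24 w.p.i. Of the 15 sites themselves, 6 were gained and 4 lost at 24 w.p.i. The widest H3.3 gap of all gene-body sites was here, at chr4:147427751-147432950, with 257.42 and 350.04 in Daxx-KO compared with 955.67 and 1031.99 in WT.

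Without the 3 windows the later shares of gained H3K9me3 and lost H3K27me3 were lower, and the order of gained and lost was kept. Of the 1242 remaining sites, 18.4% were gained and 13.9% lost for H3K9me3 at 24 w.p.i., 13.4% gained and 2.42% lost at 8 w.p.i., and 8.53% lost and 3.62% gained for H3K27me3. With them, H3K27me3 was lost at 141 of the 1302 sites (10.8%, against 14.7% of all listed H3.3 sites) and gained at 45 (3.46%, against 8.2%). H3K9me3 was gained and H3K27me3 lost at 24 w.p.i. at 52 sites (3.99%, against 2.31% of all listed H3.3 sites and 1.4% of the other H3.3-loss sites). This group is another than the 52 sites that kept the pair of changes. In it, 24 sites lay in the 2 windows of chromosome 17.

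Pu.1 was lost at more of the sites than it was gained at 3 w.p.i., in libraries of the same mice as H3.3. Lost Pu.1 sites overlapped 246 sites (18.9%) and gained ones 69 (5.30%), against 10.5% and 22.3% of all listed H3.3 sites. The other H3.3-loss sites gave 15.7% and 8.09%. At the 251 lost Pu.1 sites medians were 24.4 and 25.1 in Daxx-KO compared with 70.5 and 70.3 in WT. WT replicate 2 was shallow for Pu.1 too, with 2.75 reads per window, and the part of this shared mouse was not tested. At 24 w.p.i., in other mice, 223 sites (17.1%, against 19.4%) overlapped a lost and 161 (12.4%, against 14.1%) a gained Pu.1 site.

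H3K27ac, the mark of active enhancers and promoters, was rarely listed at these sites. At 3 w.p.i. 82 (6.30%, against 8.48%) overlapped a lost and 41 (3.15%, against 4.15%) a gained site. At 24 w.p.i. 127 (9.75%, against 16.7%) overlapped a lost and 73 (5.61%, against 14.6%) a gained site.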

How the data were processed

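CUT&Tag libraries of mouse HSPCs were used, 42 of 62 in the series, through 10 of its 15 tables. Double knock-out tables were not needed, and 1 H3K27me3 table of 8 w.p.i. was left out because its header names H3K9me3 libraries as controls. Per the labels' processing notes, reads went through CASAVA 1.8.4, cutadapt 1.13, STAR 2.5.3 and bedtools on mm10. The deposited tables were made by the authors with diffReps 1.55.6 (negative binomial test, 600-bp windows, 50-bp steps, 100-bp fragments, window p cutoff 0.0001). The 2 columns that list the deposited normalized count of each library were used. The columns of group means, log2 fold changes and p-values hold the authors' own comparisons and were not used. The handling of duplicates, multiply mapped reads and spike-in was not given in the sources used here.

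From these counts, sites on the 19 autosomes were called lost or gained where groups did not overlap, and tables were joined by overlap of at least 1 bp (Python 3.11.15, numpy 2.4.6, pandas 2.3.3, scipy 1.17.1). Overlap and call functions were tested on simulated data. No p-value was computed, so differences between replicates are shown as values of each library. Places came from GENCODE M21 (promoter: within 1 kb of a TSS of any transcript; gene body; intergenic), and sequence, GC and soft-masking from GRCm38.

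Named sites were, per place class, the 3 with the widest gap between genotypes for H3.3 and for H3K9me3, up to 10 with both changes kept and up to 5 with both turned round at 24 w.p.i., the 3 fullest 1-Mb windows, up to 5 sites per gene list, and those next to the limit of the rule. The region around the chromosome 17 windows was looked at after their values were seen. The sites and gene lists were chosen with earlier results of these data known. Calls measure the order of these libraries only.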

Additional observations from a re-analysis of the deposited data

Results flagged for a closer look

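Several groups of sites moved one way at 3 w.p.i. and the other way later, with every Daxx-KO library on the opposite side of every WT library. The difference between times was not tested in any of them. H3.3 was lost at 3 w.p.i. and gained at 24 w.p.i. at 187 sites (14.4%, against 15.7% of all listed H3.3 sites and 14.4% of the other H3.3-loss sites), 22 of which also overlapped a lost H3.3 site of 24 w.p.i. The share of 14.4% was thus above neither of these. H3K9me3 was gained at 3 w.p.i. and lost at 24 w.p.i. at 177 sites (13.6%, against 7.31% of all listed H3.3 sites), 17 of which also overlapped a gained one, and lost at 8 w.p.i. at 31 sites (2.38%, against 1.07%). Among gained H3K9me3 sites of 3 w.p.i., 12.9% of those at the 1302 sites were lost at 24 w.p.i., against 10.2% of those at no lost H3.3. For 8 w.p.i. these shares were 1.84% and 3.28%. Both turned round at 24 w.p.i. at 27 sites (2.07%, against 1.20%).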

How the results depend on the processing

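The number of sites was 844 with at least 50% of the shorter site shared, 2651 with sites up to 1 kb apart and 609 when limited to GC under 45%, against 1302. With at least 50% shared, the shares were 9.95% for lost H3.3 (24 w.p.i.), 10.7% for gained H3.3 (24 w.p.i.), 16.7% for gained H3K9me3 (24 w.p.i.), 9% for lost H3K9me3 (24 w.p.i.), 12.8% for gained H3K9me3 (8 w.p.i.), 1.42% for lost H3K9me3 (8 w.p.i.), 15.8% for lost Pu.1 (3 w.p.i.), 3.44% for gained Pu.1 (3 w.p.i.), 3.55% for lost H3K27ac (3 w.p.i.) and 2.13% for gained H3K27ac (3 w.p.i.). With sites up to 1 kb apart they were 24.9% for lost H3.3 (24 w.p.i.), 24.7% for gained H3.3 (24 w.p.i.), 30.6% for gained H3K9me3 (24 w.p.i.), 22.7% for lost H3K9me3 (24 w.p.i.), 24.1% for gained H3K9me3 (8 w.p.i.), 4.56% for lost H3K9me3 (8 w.p.i.), 26% for lost Pu.1 (3 w.p.i.), 9.77% for gained Pu.1 (3 w.p.i.), 8.3% for lost H3K27ac (3 w.p.i.) and 5.85% for gained H3K27ac (3 w.p.i.). With GC under 45% they were 9.36% for lost H3.3 (24 w.p.i.), 14.9% for gained H3K9me3 (24 w.p.i.), 1.31% for gained Pu.1 (3 w.p.i.) and 5.09% for lost H3K27ac (3 w.p.i.). The share at promoters was 13.1% within 3 kb of a TSS, 2.69% within 250 bp and 2.46% with TSSs of protein-coding genes only. Joining sites within 1 kb (1280 units) and under 50% soft-masked sequence (1047 sites) kept each share within the 95% Wilson interval of the reported one. That interval covers counting error only. A WT H3.3 mean of at least 20 was met by all 1302 sites, so this setting could change nothing. Sites with gained H3K9me3 outnumbered those with lost H3K9me3 at 8 w.p.i. under each of these settings, and at 24 w.p.i. under all but GC under 45%, where both numbered 91. Leaving out 1 library at a time gave 1302 to 1328 sites, 5.73% to 6.02% at promoters, and 13.7% to 14% for lost H3.3 (24 w.p.i.), 14.3% to 14.7% for gained H3.3 (24 w.p.i.), 20.7% to 21.2% for gained H3K9me3 (24 w.p.i.), 13.6% to 14.3% for lost H3K9me3 (24 w.p.i.), 15.4% to 16.6% for gained H3K9me3 (8 w.p.i.), 2.33% to 2.53% for lost H3K9me3 (8 w.p.i.), 18.8% to 19.1% for lost Pu.1 (3 w.p.i.), 5.29% to 5.87% for gained Pu.1 (3 w.p.i.), 6.27% to 6.53% for lost H3K27ac (3 w.p.i.), 3.14% to 3.46% for gained H3K27ac (3 w.p.i.). Leaving out a library can only loosen the rule of a call, so the numbers of sites and of calls could not fall. These ranges are therefore no check of the calls. No paired analysis was possible because the results come from no test. The reads behind a call were few, above all in WT replicate 2 of H3.3 and in the H3K9me3 libraries of 3 w.p.i. Tables list changed sites only, so sites without an entry could not be followed.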
